A study of Mus musculus with 26 samples.

Results

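The collagen genes of brown adipose tissue (BAT) were examined as 1 family of 44 protein-coding genes, taken as every gene whose mouse symbol has the form Col, a number, a and a number, out of 50686 genes in the deposited counts. RNA-seq had been carried out on BAT, labelled supraclavicular, of 26 male C57BL/6J mice aged 12 to 16 weeks that were first acclimated to thermoneutrality (30 °C in the labels and 29 °C in the study's methods) for 14 to 18 days. Fat-specific Afadin knockout (FAKO) mice, in which Adiponectin-Cre deletes a floxed Mllt4 (Afdn) gene in adipocytes of every fat depot, were compared with control littermates labelled WT, either kept at thermoneutrality or moved to 5 °C for 6 h. The alleles of the control littermates were not given in the sources used here. The 4 groups were 7 control mice at thermoneutrality (WT30), 7 mice labelled KO at thermoneutrality (KO30), 5 control mice in the cold (WT5) and 7 mice labelled KO in the cold (KO5). Each mouse gave 1 library. The Cre acts in adipocytes, and which cells of the tissue transcribe each collagen was not measured.

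Total counts per library ran from 12705969 to 25732258. Levels are given as CPM, the count of a gene relative to the size of its library, after scaling by TMM factors, which correct for unequal composition of the libraries. Ucp1, the uncoupling protein that defines brown adipocytes, was measured at 551 CPM or more in every mouse. Afdn, the targeted gene, ran from 151 to 214 CPM in control mice and from 154 to 231 CPM in mice labelled KO at thermoneutrality, so the 2 groups overlapped, and from 67.9 to 79.2 CPM and from 53.3 to 65.3 CPM in the cold, where they did not. Neither difference passed the test (the quasi-likelihood test of edgeR, adjusted by Benjamini-Hochberg, log2 fold change -0.01 ± 0.08 (SE), adjusted p = 0.992, and -0.33 ± 0.09, adjusted p = 0.116), so the genotype is given throughout as labelled. These counts cover the whole gene and all cells of the tissue. At the protein level, the study reported a smaller cold-induced rise of Afadin in BAT of FAKO mice than of control mice. Control mouse 7 at thermoneutrality and mouse 27 labelled KO in the cold stood apart from their groups in several collagen genes. Some collagen results that rest on them are also given without them, and the others are given with all mice only.

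Collagens are secreted proteins built from 3 chains wound into a triple helix. Fibrillar collagens assemble into the rope-like fibrils that give connective tissue its tensile strength, whereas type IV collagens form the sheet-like network of the basement membrane that lies under endothelium and around each adipocyte. Beaded-filament collagens of type VI link cells to the surrounding matrix, FACIT collagens decorate the surface of fibrils, transmembrane collagens span the plasma membrane, and type VII collagen anchors the basement membrane to the fibrils beneath it. In adipose tissue the matrix around adipocytes and capillaries is laid down mainly by fibroblast-like progenitors, adipocytes and vascular cells.

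Of the 44 genes, 35 passed the filter on low counts and were tested: 9 of 11 fibrillar, 8 of 8 basement membrane, 5 of 6 beaded-filament, 6 of 9 FACIT, 3 of 4 transmembrane, 3 of 4 short-chain or anchoring-fibril collagens and 1 of 2 others. The 9 genes that did not pass were Col2a1, the main collagen of cartilage, Col9a1 and Col9a2, its fibril-associated partners, and Col6a4, Col8a2, Col22a1, Col24a1, Col25a1 and Col26a1. None of these 9 had a mean above 0.282 CPM, the value of Col8a2. Markers of cartilage and tendon (Acan, Comp, Tnmd and Matn1) were near the floor as well, at a summed 0.0697 to 0.899 CPM per mouse.

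Per kilobase of exon, the only scale on which levels of different genes are compared here, Col3a1 was the highest collagen gene at thermoneutrality, at 102 ± 42 CPM per kb (SD, n = 7) in control mice and 86.1 ± 20 in mice labelled KO. Col4a1 came next at 70.1 ± 8.0 and 67.6 ± 4.3 CPM per kb, a difference from Col3a1 of less than the SD of Col3a1 in control mice. Col4a2 followed at 39.1 ± 3.6 and Col6a1 at 32 ± 8.5 CPM per kb in control mice, within the SD of Col6a1. In the cold the order changed at the top. Col4a1 reached 283 ± 23 CPM per kb (n = 5) in control mice and 279 ± 70 (n = 7) in mice labelled KO, and Col4a2 reached 136 ± 13 and 129 ± 27. Col3a1 stood at 85.4 ± 14 and 88.3 ± 14 CPM per kb, below both type IV genes.

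Summed over all 44 genes, collagens took 2566 to 5576 CPM (median 2871) in control mice at thermoneutrality and 2504 to 3580 CPM (median 2750) in mice labelled KO, against 4916 to 5469 CPM (median 5137) and 4259 to 6436 CPM (median 5149) in the cold. The overlap between temperatures came from control mouse 7, which held the highest value at thermoneutrality. The basement membrane genes made up 20.3% to 33.9% of all collagen counts in control mice and 23.2% to 33.9% in mice labelled KO at thermoneutrality. Their share was 56.5% to 64.8% and 46.5% to 66.1% in the cold, so no cold mouse fell within the thermoneutral range. The fibrillar share lay at 45.5% to 62.3% and 44.9% to 58.0% at thermoneutrality and at 24.1% to 31.9% and 17.4% to 39.6% in the cold. The fibrillar sum itself was 1200.4 to 3475 CPM (median 1479) and 1126 to 2076 CPM (median 1280.5) at thermoneutrality and 1184 to 1745 CPM (median 1577) and 1117 to 1859 CPM (median 1658) in the cold, ranges that overlap in every pair of groups. Counts scale with transcript length, so these shares are shares of counts and not of molecules, and a sum over genes got no test. In bulk tissue, a change in the number of cells of a type and a change in the RNA per cell cannot be told apart.

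**Figure D1:**
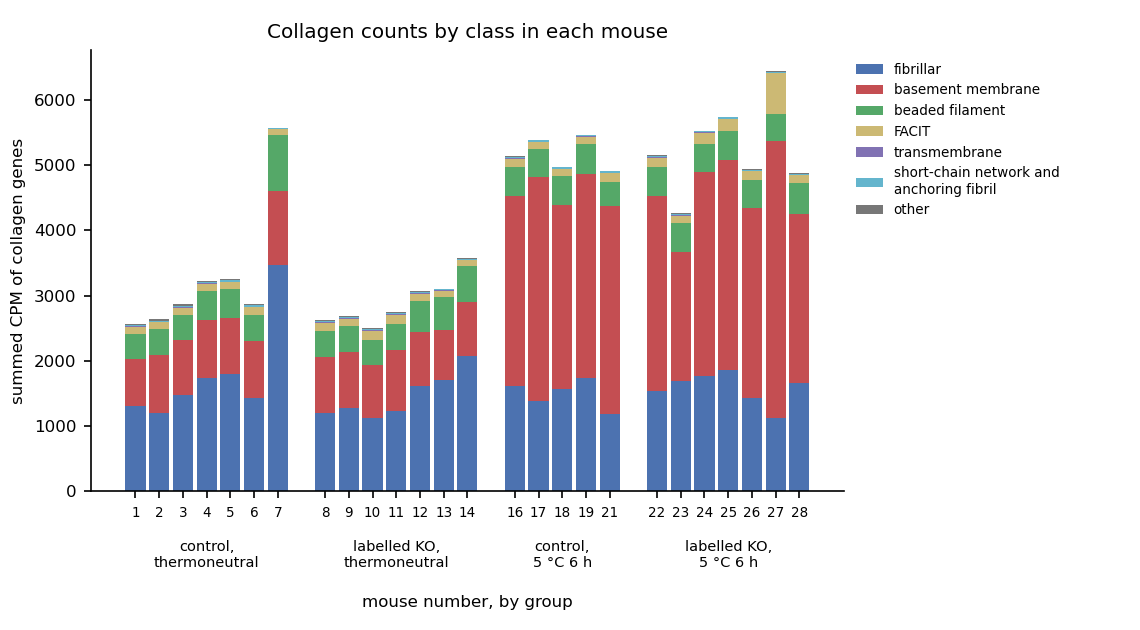
Summed CPM (TMM-scaled) of the collagen genes in each of the 26 mice, stacked by class, with 1 bar per mouse and mouse numbers as in the labels. The basement membrane part is 721 to 1131 CPM at thermoneutrality and 1979 to 4255 CPM at 5 °C, and control mouse 7 and mouse 27 labelled KO have the highest totals at their temperatures.

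The first question was which collagen genes change within 6 h of cold. In control mice, 5 of 35 tested collagen genes were higher and 8 lower in the cold (adjusted p below 0.05 over all 17286 genes tested), where 31.6% of all genes were higher and 33.4% lower. In mice labelled KO, 7 were higher and 10 lower, where 33.7% of all genes were higher and 34.9% lower. In each genotype the share of collagens called in either direction was thus below that of all genes. The median log2 fold change of the 35 genes was -0.17 in control mice and -0.01 in mice labelled KO, beside -0.01 and -0.03 for all genes. The first of these rested in part on control mouse 7. Without it the medians of the 34 collagen genes then tested were -0.05 and -0.01, beside -0.03 and -0.05 for all genes. Of the 35 genes, 5 passed the filter on low counts through the mice of 1 temperature alone. These were Col11a1 through the cold mice, and Col4a6, Col6a5, Col9a3 and Col19a1 through the thermoneutral mice. The filter thus favoured 1 direction for each of them, and a call of such a gene supports nothing. Without these 5 genes, 4 of 30 were higher and 8 lower in control mice and 6 and 8 in mice labelled KO, with medians of -0.14 and 0.05. Of these 30, both comparisons called 3 genes higher (Col4a1, Col4a2 and Col7a1) and 7 lower (Col4a5, Col6a6, Col8a1, Col15a1, Col20a1, Col23a1 and Col28a1). With scaling by library size alone the median of all genes moved to -0.14 and -0.34, and the calls in mice labelled KO became 5 higher and 15 lower.

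**Figure D2:**
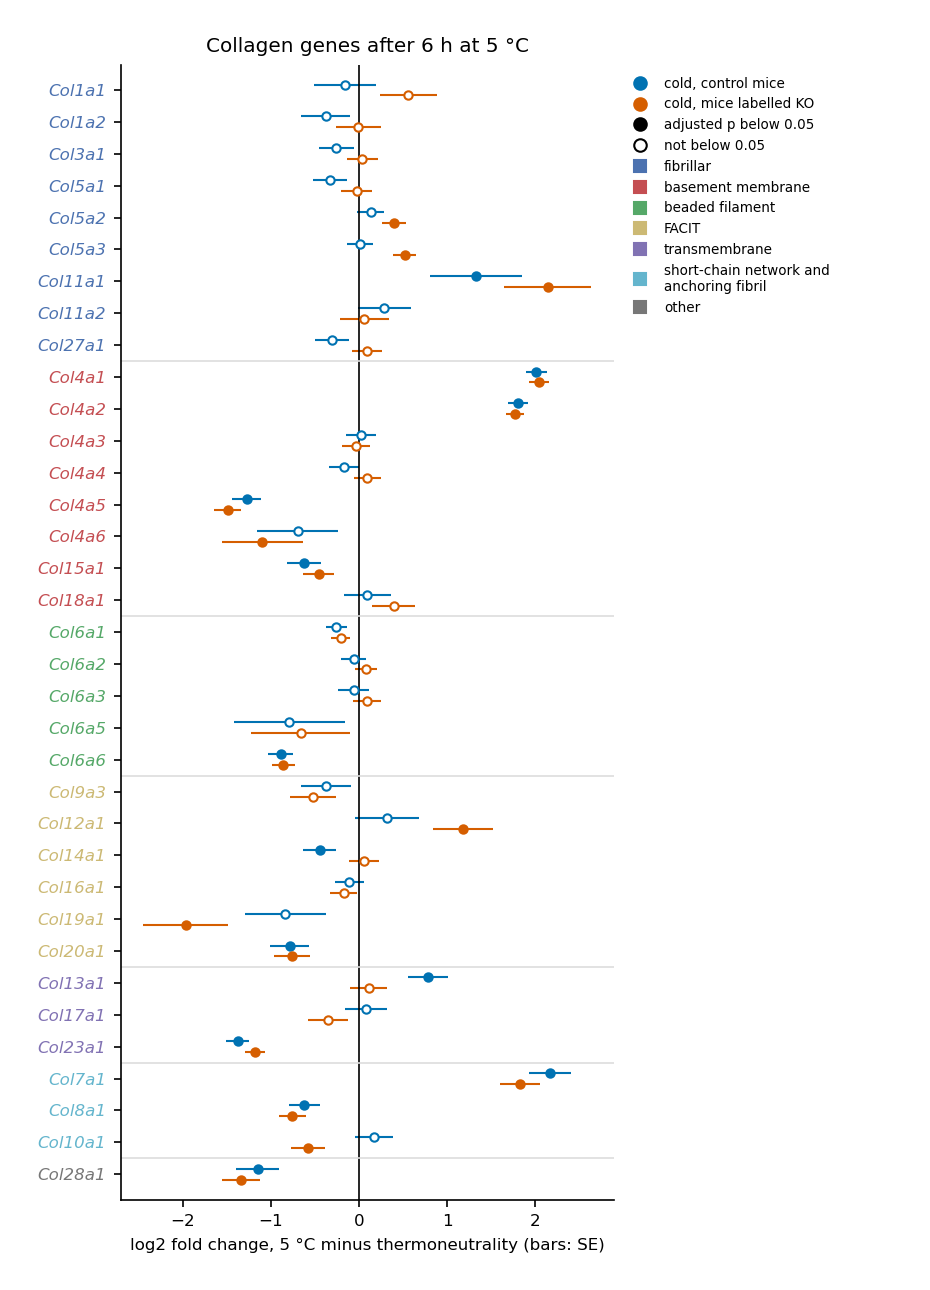
Log2 fold change (5 °C minus thermoneutrality) with its SE for the 35 tested collagen genes, grouped by class, in control mice (blue) and mice labelled KO (orange). Filled points have an adjusted p below 0.05, with Col4a1, Col4a2 and Col7a1 on the right, beside Col11a1, which passed the low-count filter through the cold mice alone, and Col4a5, Col23a1 and Col28a1 among those on the left in both genotypes.

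Among the basement membrane genes the cold response was split. Col4a1 and Col4a2, which encode the chains of the type IV network present in nearly every basement membrane, rose about as much in both genotypes, whereas Col4a5 fell and Col4a3 and Col4a4 were not called. Col4a1 ran from 428 to 631 CPM (median 523) in control mice and from 455 to 548 CPM (median 512) in mice labelled KO at thermoneutrality. In the cold it was measured at 2001, 2305, 1873, 2158 and 2206 CPM in the control mice and at 1341 to 3076 CPM (median 2041) in mice labelled KO. Every cold mouse was above every thermoneutral mouse. The rise was 4.03-fold in control mice (log2 fold change 2.01 ± 0.12 (SE), adjusted p = 1.08e-13 by edgeR's quasi-likelihood test) and 4.13-fold in mice labelled KO (2.04 ± 0.12, adjusted p = 1.99e-14). Col4a2 behaved alike, at 217 to 296 CPM (median 261) and 224 to 292 CPM (median 251) at thermoneutrality, then at 822, 1036, 855, 879 and 922 CPM in the cold control mice and 563 to 1105 CPM (median 865) in mice labelled KO. Its rises were 3.48-fold (1.80 ± 0.11, adjusted p = 1.46e-13) and 3.40-fold (1.77 ± 0.10, adjusted p = 4.85e-14), again with no overlap between temperatures. The ratio of Col4a1 to Col4a2 per kilobase of exon lay between 1.66 and 1.90 in the thermoneutral mice and between 1.94 and 2.47 in the cold mice.

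**Figure D3:**
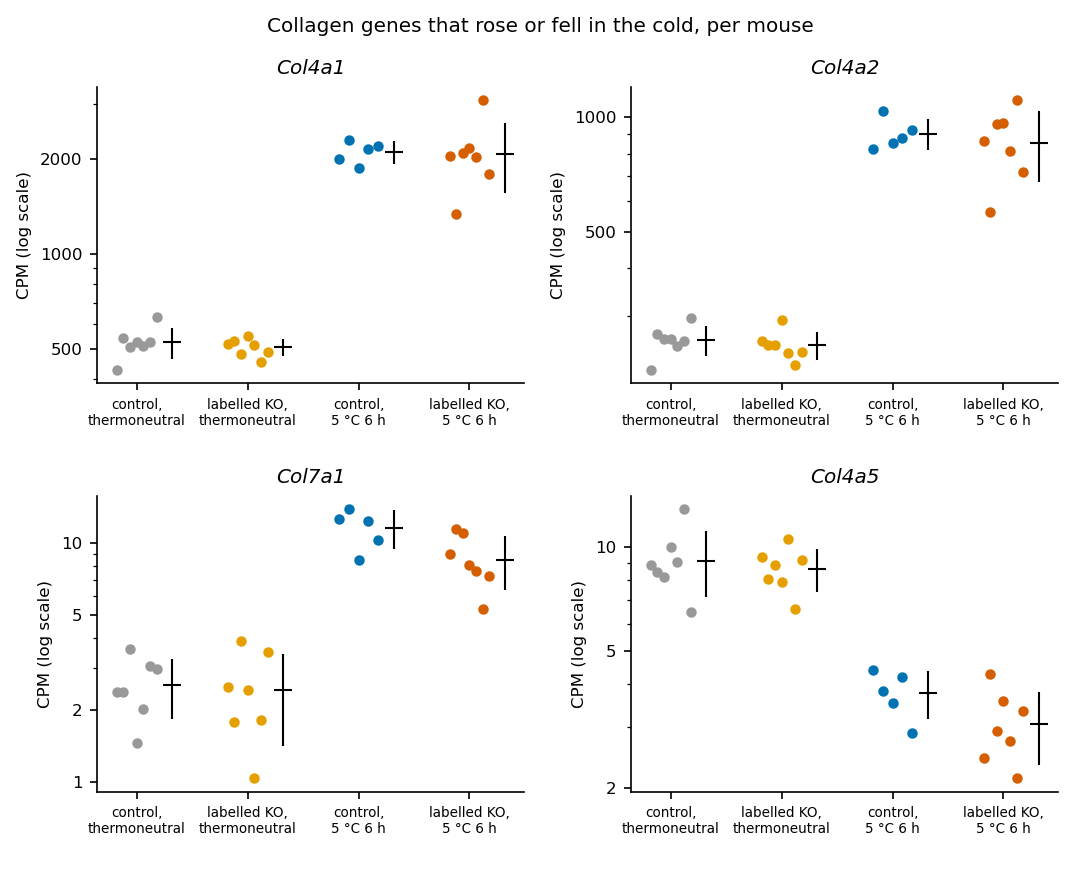
CPM (log scale, TMM-scaled) of Col4a1, Col4a2, Col7a1 and Col4a5 in each mouse of the 4 groups, with the mean and SD of the group as a black bar beside its points. The cold groups lie above the thermoneutral groups for the first 3 genes and below them for Col4a5, with no overlap between temperatures.

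Col4a1 and Col4a2 lie head to head on chromosome 8, with annotated start sites 21 bases apart (11312826 on the minus strand and 11312805 on the plus strand, mm10), so that their promoter windows overlap. Their first exons share 22 bases, or 0.295% and 0.332% of the exonic length. The windows are shown because the pair moved together, next to those of Col4a5, the basement membrane gene with the largest fall, and Col7a1, which rose with the pair. Each is 300 bases from RefSeq on GRCm38.p6, from 250 bases before the start site to 50 bases after it, written 5′ to 3′ on the gene's strand. They are chr8:11312777-11313076 (minus strand) for Col4a1, chr8:11312555-11312854 (plus) for Col4a2, chrX:141475169-141475468 (plus) for Col4a5 and chr9:108953336-108953635 (plus) for Col7a1. Capitals mark CCAAT boxes (CCAAT) and GC boxes (GGGCGG), searched on both strands.
Col4a1: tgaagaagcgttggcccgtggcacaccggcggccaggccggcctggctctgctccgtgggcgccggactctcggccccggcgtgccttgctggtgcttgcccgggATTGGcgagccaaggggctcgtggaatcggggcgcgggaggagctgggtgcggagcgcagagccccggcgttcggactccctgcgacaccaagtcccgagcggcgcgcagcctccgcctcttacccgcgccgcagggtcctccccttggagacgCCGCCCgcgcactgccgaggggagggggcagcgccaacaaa
Col4a2: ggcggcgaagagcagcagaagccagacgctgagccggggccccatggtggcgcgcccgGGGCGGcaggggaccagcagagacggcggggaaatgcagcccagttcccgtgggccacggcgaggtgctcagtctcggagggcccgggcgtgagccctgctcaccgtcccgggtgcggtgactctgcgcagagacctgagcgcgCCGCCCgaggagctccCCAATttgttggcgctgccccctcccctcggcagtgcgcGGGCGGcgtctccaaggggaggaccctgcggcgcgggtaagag
Col4a5: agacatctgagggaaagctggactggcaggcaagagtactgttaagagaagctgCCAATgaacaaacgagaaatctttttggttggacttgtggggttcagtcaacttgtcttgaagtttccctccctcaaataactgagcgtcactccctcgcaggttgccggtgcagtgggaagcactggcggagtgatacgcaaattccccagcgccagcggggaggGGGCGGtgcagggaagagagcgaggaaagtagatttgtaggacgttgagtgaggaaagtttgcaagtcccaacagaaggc
Col7a1: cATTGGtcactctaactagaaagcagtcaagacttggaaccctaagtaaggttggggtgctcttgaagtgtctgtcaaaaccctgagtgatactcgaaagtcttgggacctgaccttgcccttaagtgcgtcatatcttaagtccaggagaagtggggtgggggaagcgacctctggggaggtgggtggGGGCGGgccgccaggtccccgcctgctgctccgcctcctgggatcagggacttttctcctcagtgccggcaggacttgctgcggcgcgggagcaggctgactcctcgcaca
Each of the 4 windows holds at least 1 CCAAT box and at least 1 GC box, and none holds a TATA box (TATAAA). Of all 32851 promoter windows of this length, 37.4% hold a CCAAT box, 35.7% a GC box and 13.6% a TATA box, and among the 38 windows of the 35 collagen genes with an entry the counts were 13, 23 and 5. The rising and the falling genes among the 4 share these letters. A match describes the sequence alone, and binding was not measured.

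Col4a3 and Col4a4, which together with Col4a5 build the type IV network best known from kidney and lung, are also arranged head to head, 72 bases apart, and neither was called in either genotype. Col4a3 ran from 2.42 to 5.82 CPM over all mice and Col4a4 from 2.89 to 7.64 CPM, with cold log2 fold changes between -0.17 and 0.09. Reads of Col4a3 and of an overlapping transcript on the other strand (5.65% of its exons) cannot be told apart if strand was not used in counting. Col4a5 lay at 6.47 to 12.9 CPM (median 8.89) and 6.61 to 10.5 CPM (median 8.85) at thermoneutrality. Its cold values were 4.39, 3.83, 3.52, 4.21 and 2.88 CPM in control mice and 2.14 to 4.29 CPM (median 2.92) in mice labelled KO, below every thermoneutral mouse. It fell 2.42-fold in control mice (-1.28 ± 0.16, adjusted p = 1.54e-07 by edgeR's quasi-likelihood test) and 2.81-fold in mice labelled KO (-1.49 ± 0.15, adjusted p = 1.57e-09). Its neighbour Col4a6, 1309 bases away on the opposite strand, was close to the floor at 0 to 1.10 CPM and passed the filter through the thermoneutral mice alone. Its log2 fold changes were -0.70 ± 0.45 and -1.10 ± 0.45, and nothing is read from them.

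The remaining basement membrane genes, Col15a1 and Col18a1, encode multiplexins, proteoglycan-like collagens that bridge the basement membrane to the interstitial matrix and carry anti-angiogenic fragments at their ends. Col15a1 was lower in the cold in both genotypes, from 40.3 to 115 CPM (median 49.2) and 42.2 to 56.5 CPM (median 48.1) to 42.8, 35.0, 41.9, 37.8 and 24.1 CPM in control mice and 30.9 to 40.8 CPM (median 34.2) in mice labelled KO. The log2 fold changes were -0.63 ± 0.19 (adjusted p = 0.00568) and -0.46 ± 0.17 (adjusted p = 0.0212), and the first became -0.37 without control mouse 7. Col18a1 was not called with all mice (0.09 ± 0.27 and 0.39 ± 0.24), but its level in control mouse 7 was 73.6 CPM where the others of its group reached at most 22.4. Without that mouse Col18a1 was higher in the cold in both genotypes, by 0.57 (adjusted p = 0.000157) and 0.36 (adjusted p = 0.00335) on the log2 scale.

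Apart from Col11a1, which the filter on low counts let through on its cold mice alone, no fibrillar gene was called in control mice, and Col5a2 and Col5a3 were called higher in mice labelled KO, where 33.7% of all genes were. No fibrillar gene was called lower in either genotype. Col3a1, the collagen of reticular fibres, ran from 686 to 1892 CPM (median 852) in control mice and from 648 to 1180.4 CPM (median 759.8) in mice labelled KO at thermoneutrality. Its cold values were 896, 788, 891, 984 and 631 CPM and 589 to 1011 CPM (median 929.6), inside the thermoneutral range apart from the lowest mice. Neither response was called (-0.26 ± 0.20 and 0.04 ± 0.18). Col1a1 and Col1a2, whose chains form type I collagen, the main fibre of skin, tendon and bone, were not called either. Col1a1 lay at 82.3 to 428 CPM (median 110.2) and 66.3 to 203 CPM (median 77.5) at thermoneutrality and at 169, 137, 151, 177 and 119 CPM and 75.6 to 255 CPM (median 146) in the cold. Col1a2 lay at 180.3 to 714 CPM (median 229) and 183 to 400.2 CPM (median 189), then at 270.0, 204, 242, 291 and 193 CPM and 140.3 to 358 CPM (median 252). The groups of both genes overlap throughout. The log2 fold changes of Col1a1 were -0.16 ± 0.35 in control mice and 0.56 ± 0.32 in mice labelled KO, and the first had the opposite sign, 0.24, without control mouse 7. Per kilobase of exon, the ratio of Col1a1 to Col1a2 had a median of 0.964 and 0.776 at thermoneutrality and of 1.18 and 1.13 in the cold.

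**Figure D4:**
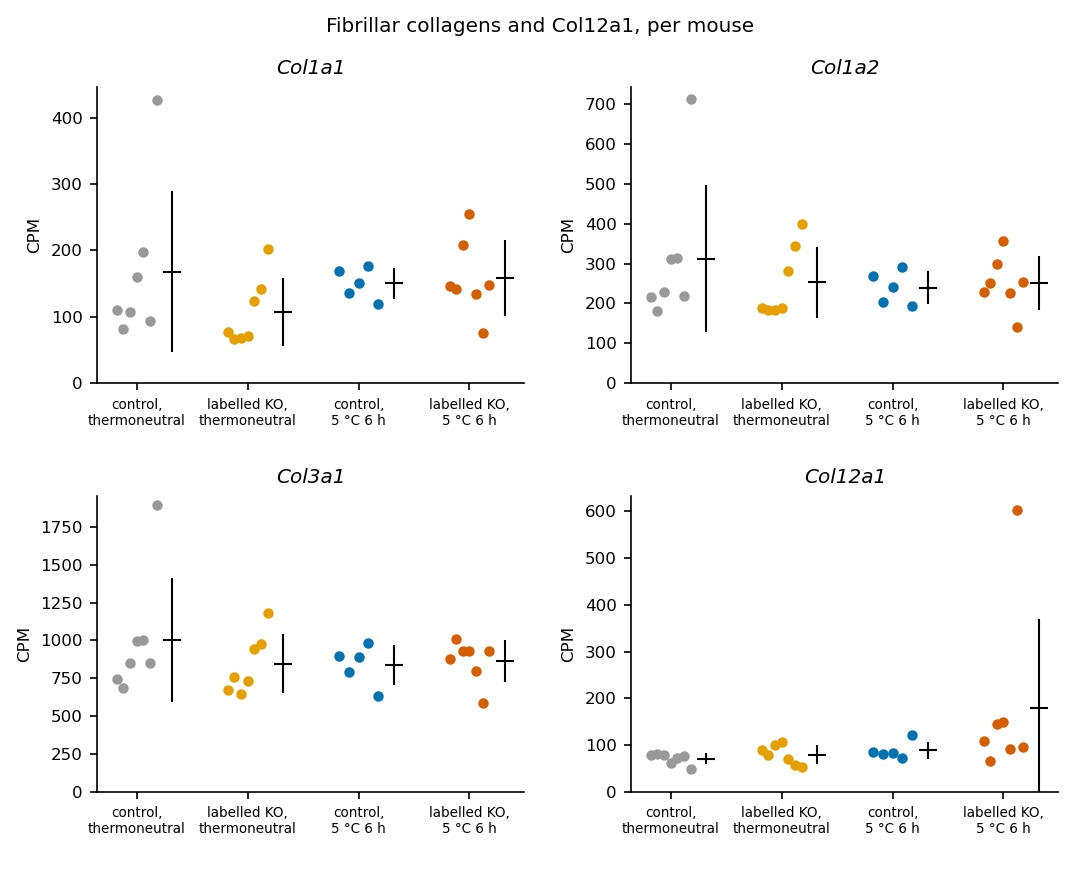
CPM (linear scale from 0, TMM-scaled) of Col1a1, Col1a2, Col3a1 and Col12a1 in each mouse, with the group mean and SD as a black bar; the lower end of the Col12a1 bar in the last group is below 0 and is not drawn. Control mouse 7 is the highest point of the first 3 genes, and mouse 27 labelled KO is the highest point of Col12a1 at 603 CPM.

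Type V chains nucleate and thin the type I fibril. Col5a1 was not called, at 54.4 to 127 CPM (median 56.9) and 45.2 to 76.2 CPM (median 49.1) at thermoneutrality and at 61.4, 53.0, 59.3, 61.2 and 40.2 CPM and 32.1 to 62.6 CPM (median 57.6) in the cold. Col5a2 lay at 70.3 to 157 CPM (median 78.8) and 63.8 to 97.1 CPM (median 74.8), then at 107, 96.0, 95.5, 107 and 81.3 CPM and 91.4 to 114 CPM (median 97.7). Col5a3 lay at 39.0 to 86.8 CPM (median 47.4) and 36.1 to 51.7 CPM (median 45.1), then at 49.7, 59.7, 55.4, 57.8 and 51.3 CPM and 54.8 to 87.2 CPM (median 62.2). Both were called higher in mice labelled KO, Col5a2 by 0.39 ± 0.14 (adjusted p = 0.0125) and Col5a3 by 0.52 ± 0.13 (adjusted p = 0.00116), and only Col5a3 had cold and thermoneutral mice that did not overlap. Neither was called in control mice (0.13 ± 0.15 and 0.01 ± 0.14), and the difference between the responses was not called for either (adjusted p = 0.554 and 0.195). Both calls were lost with scaling by library size alone (0.07 and 0.20), and without control mouse 7 Col5a2 was called in control mice too (0.30, adjusted p = 0.00764). Col27a1, a fibrillar collagen of cartilage matrix, was not called, at 60.4 to 115 CPM (median 67.8) and 43.8 to 99.1 CPM (median 76.5) at thermoneutrality and at 63.2, 45.7, 78.4, 61.8 and 59.0 CPM and 54.9 to 109.7 CPM (median 81.7) in the cold. Col11a1, a minor chain of fibrils in cartilage, was at or below 2.20 CPM in every mouse. Its log2 fold changes were 1.32 ± 0.52 and 2.14 ± 0.49, and since it was tested only through the cold mice nothing is read from them. Its partner Col11a2 was not called, at 1.80 to 8.46 CPM over all mice.

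Type VI collagen is the beaded filament that surrounds adipocytes, and its main chains were not called in the cold. Col6a1 lay at 117 to 222 CPM (median 126) and 119.8 to 157 CPM (median 126) at thermoneutrality, and at 123, 117, 119, 128 and 99.9 CPM and 109.5 to 124 CPM (median 119) in the cold. Col6a2 lay at 71.3 to 154 CPM (median 77.3) and 70.4 to 107 CPM (median 76.2), then at 88.8, 87.6, 88.4, 93.3 and 74.0 CPM and 79.9 to 94.4 CPM (median 86.3). Col6a3 lay at 174 to 464 CPM (median 192) and 179.6 to 282 CPM (median 199), then at 231, 222, 229, 239 and 187 CPM and 217 to 262 CPM (median 225). Their log2 fold changes ran from -0.26 ± 0.12 for Col6a1 in control mice to 0.09 ± 0.16 for Col6a3 in mice labelled KO. Without control mouse 7, Col6a1 was called lower in mice labelled KO (-0.24, adjusted p = 0.00401). Col6a6, a chain that can take the place of Col6a3 in the filament, was lower in the cold in both genotypes. It ran from 6.26 to 8.26 CPM (median 7.34) and from 5.97 to 7.66 CPM (median 6.84) at thermoneutrality. In the cold it was at 3.97, 3.83, 4.38, 4.26 and 3.51 CPM and at 2.42 to 4.72 CPM (median 4.29), with no overlap. The falls were 1.85-fold (-0.89 ± 0.14, adjusted p = 3.42e-06 by edgeR's quasi-likelihood test) and 1.81-fold (-0.86 ± 0.13, adjusted p = 1.21e-06). Col6a5 was low and variable, at 0.0644 to 2.35 CPM, passed the filter through the thermoneutral mice alone and was not called.

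Among the FACIT collagens, Col12a1, which bridges neighbouring fibrils under load, was the most abundant and the least uniform. It lay at 47.8 to 81.7 CPM (median 77.3) and 53.0 to 106 CPM (median 78.9) at thermoneutrality and at 85.2, 79.9, 83.2, 72.1 and 121 CPM in the cold control mice. In the cold mice labelled KO it ran from 66.3 to 603 CPM (median 108), and mouse 27 alone was above 150.3. Col12a1 was called higher in mice labelled KO (2.27-fold, 1.18 ± 0.34, adjusted p = 0.00307) and not in control mice (0.31 ± 0.36), while the difference between the responses was not called (0.87 ± 0.50, adjusted p = 0.397). Without mouse 27 the rise was 0.46 ± 0.18 on the log2 scale (adjusted p = 0.0256). Col20a1 was lower in both genotypes (-0.79 ± 0.22, adjusted p = 0.00312, and -0.76 ± 0.20, adjusted p = 0.00162), from 3.17 to 6.09 CPM at thermoneutrality to 1.63 to 3.93 CPM. Col14a1, which coats fibrils in skin and tendon, ran from 15.2 to 38.6 CPM over all mice and was called lower only in control mice (-0.45 ± 0.19, adjusted p = 0.0418), a call lost in 8 of the alternatives. Col19a1, at 0 to 0.725 CPM over all mice, had log2 fold changes of -0.84 ± 0.46 and -1.97 ± 0.48, from which nothing is read because it passed the filter, like Col9a3, through the thermoneutral mice alone. Col16a1 (2.87 to 7.34 CPM) and Col9a3 (0.181 to 0.775 CPM, 6.07% of its exons shared with Tcfl5 on the other strand) were not called.

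In the transmembrane class, Col23a1 was among the most uniform of the falling genes. It lay at 5.26 to 7.75 CPM (median 6.62) and 5.12 to 7.02 CPM (median 6.15) at thermoneutrality and at 2.67, 2.58, 2.27, 2.60 and 2.48 CPM and 1.79 to 3.11 CPM (median 2.68) in the cold, with a wide gap between temperatures. The falls were 2.60-fold (-1.38 ± 0.12, adjusted p = 2.57e-10 by edgeR's quasi-likelihood test) and 2.27-fold (-1.18 ± 0.11, adjusted p = 4.68e-10). Col13a1, a collagen of cell adhesion sites and the neuromuscular junction, was called higher in control mice (0.78 ± 0.23, adjusted p = 0.00377). It rose there from 1.87 to 3.99 CPM (median 2.71) to 5.22, 4.67, 4.89, 4.73 and 3.34 CPM, with 1 cold mouse inside the thermoneutral range. In mice labelled KO it lay at 1.96 to 4.48 CPM (median 2.91) and 1.97 to 5.03 CPM (median 3.11), with no call (0.11 ± 0.21). The difference between the responses was not called (-0.68 ± 0.31, adjusted p = 0.284). Col17a1, a hemidesmosome component, was at 0.515 to 1.42 CPM and was not called.

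Col7a1, which forms the anchoring fibril, rose with Col4a1 and Col4a2 from a low level. It lay at 1.45 to 3.60 CPM (median 2.38) and 1.03 to 3.90 CPM (median 2.42) at thermoneutrality, and at 12.7, 13.9, 8.50, 12.5 and 10.4 CPM and 5.29 to 11.5 CPM (median 8.10) in the cold. Every cold mouse was above every thermoneutral mouse. The rises were 4.50-fold (2.17 ± 0.24, adjusted p = 1.15e-08 by edgeR's quasi-likelihood test) and 3.54-fold (1.82 ± 0.23, adjusted p = 7.91e-08). The short-chain genes of the class, Col8a1 and Col10a1, were not called higher in either genotype. Col8a1, a short-chain collagen of vessel walls, was lower in both genotypes (-0.62 ± 0.17, adjusted p = 0.00258, and -0.76 ± 0.16, adjusted p = 0.000124), from 6.97 to 15.7 CPM at thermoneutrality to 5.76 to 10.4 CPM in the cold. Col10a1, known from hypertrophic cartilage, was called lower only in mice labelled KO (-0.58 ± 0.20, adjusted p = 0.0111), at 1.75 to 3.62 CPM before and 1.20 to 2.92 CPM after, with no call for the difference between the responses (adjusted p = 0.20). Col28a1, a von Willebrand factor A domain collagen found around nerves, lay at 5.69 to 23.4 CPM (median 17.8) and 10.4 to 24.6 CPM (median 18.6) at thermoneutrality. In the cold it was at 6.29, 6.48, 9.70, 7.59 and 8.24 CPM and at 5.12 to 9.43 CPM (median 6.59), so that only control mouse 7, the lowest thermoneutral value, overlapped with the cold mice. It fell 2.22-fold (-1.15 ± 0.24, adjusted p = 0.000154) and 2.53-fold (-1.34 ± 0.22, adjusted p = 5.26e-06). Of 6 markers of Schwann cells, 2 were lower in control mice and 4 in mice labelled KO and none higher, where 33.4% and 34.9% of all genes were lower, with summed levels of 95.6 to 131 CPM and 87.8 to 108 CPM at thermoneutrality and 59.5 to 81.2 CPM and 59.2 to 80.7 CPM in the cold. Their part in the Col28a1 result was not tested.

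The next question was whether collagen genes differ between mice labelled KO and control mice. At thermoneutrality, edgeR's quasi-likelihood test called 0 of 35 collagen genes, where 0.081% of all genes were called. At an unadjusted p below 0.05 there were 3 of 35 (Col4a3, Col5a3 and Col10a1), where 7.65% of all genes passed, and DESeq2 called 0. All 9 fibrillar and all 8 basement membrane genes had a negative log2 fold change, from -0.65 ± 0.32 for Col1a1 (adjusted p = 0.653) to -0.04 ± 0.10 for Col4a2. These signs rested in part on control mouse 7. Without it 7 of 9 fibrillar and 4 of 8 basement membrane genes were negative, Col1a1 stood at -0.21 and Col3a1 at -0.0041. With scaling by library size alone 7 of 9 and 5 of 8 were negative. The markers of fibroblasts and progenitors were highest in that mouse too, at a summed 281.9 CPM. All control mice at thermoneutrality ran from 152 to 282 CPM (median 179). Skeletal muscle markers summed to 4970 CPM in that mouse, the highest of the control mice at thermoneutrality (6.18 to 4970 CPM). These muscle markers ranged widely in the other groups too, at 3.67 to 1357 CPM (KO30), 0.772 to 4163 CPM (WT5) and 1.63 to 6748 CPM (KO5). The part of either marker set in the collagen levels of control mouse 7 was not tested. Col10a1 had the smallest p of the family, higher in mice labelled KO by 0.61 ± 0.20 (adjusted p = 0.398), at 1.44 to 2.60 CPM in control mice and 1.75 to 3.62 CPM in mice labelled KO.

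In the cold, edgeR called 0 of 35 collagen genes between the genotypes, where 0.139% of all genes were called. At an unadjusted p below 0.05 there were 2 of 35 (Col4a3 and Col12a1), where 13.4% of all genes passed, and DESeq2 again called 0. Col4a1 and Col4a2 differed by -0.02 ± 0.12 and -0.08 ± 0.11 on the log2 scale. Col12a1 was higher in mice labelled KO by 1.03 ± 0.37 (adjusted p = 0.232), which became 0.31 ± 0.20 without mouse 27. Col4a3 had a negative value at both temperatures, -0.34 ± 0.16 and -0.40 ± 0.17 (adjusted p = 0.620 and 0.305). The difference of the cold responses between genotypes was called for 0 of 35 collagen genes by edgeR and by DESeq2, where 1.16% of all genes were called. The unadjusted p was below 0.05 for 3 of 35 (Col5a3, Col10a1 and Col13a1), where 16.2% of all genes passed. For Col4a1 this difference was 0.03 ± 0.16 and for Col4a2 -0.03 ± 0.15. A p that misses the threshold does not show that the genotypes were alike: at this spread the SE of the genotype difference ran from 0.10 for Col4a2 at thermoneutrality to 0.37 for Col12a1 in the cold among the genes named by rule.

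**Figure D5:**
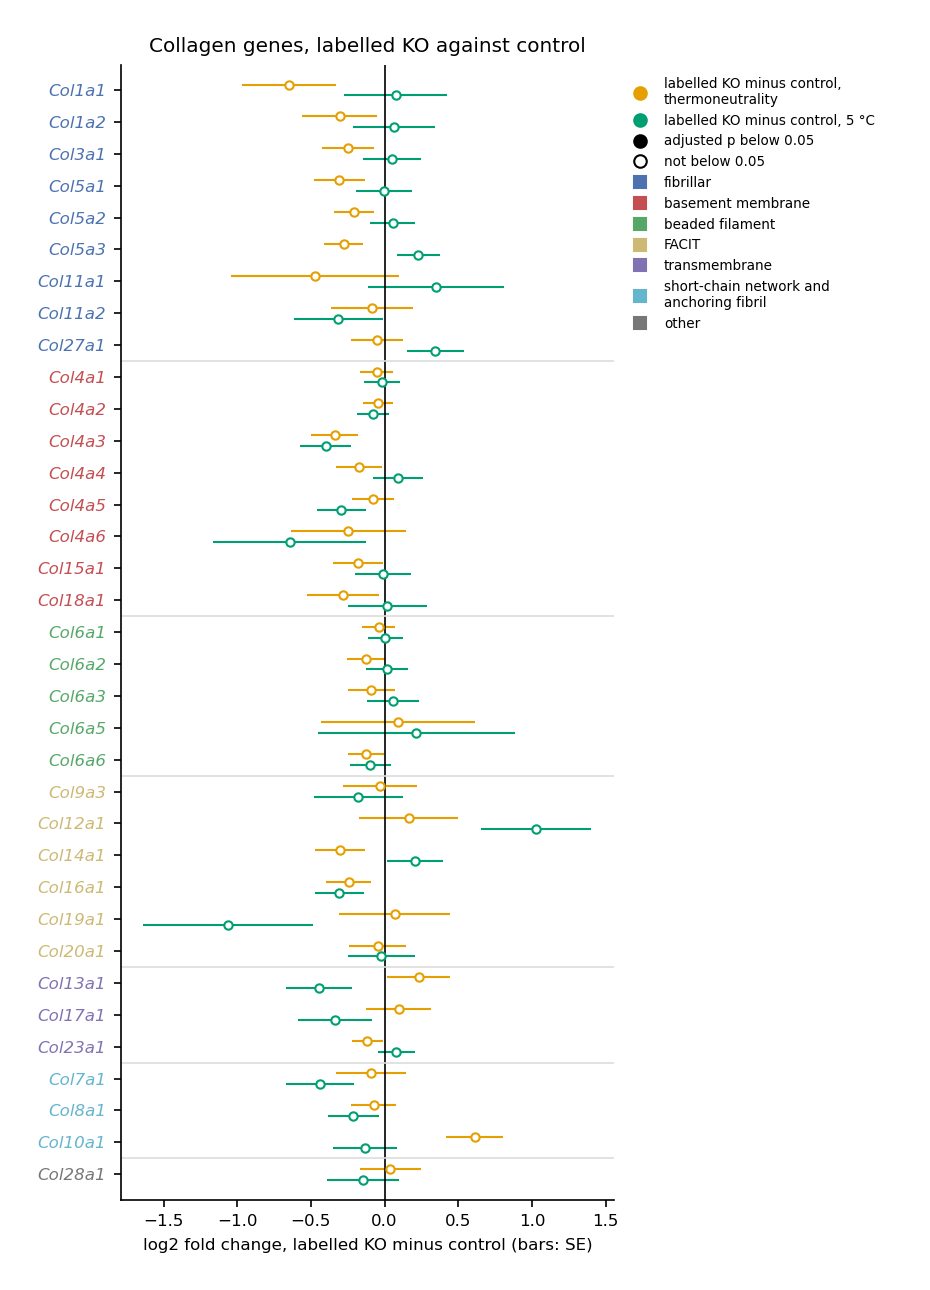
Log2 fold change (labelled KO minus control) with its SE for the 35 tested collagen genes at thermoneutrality (orange) and at 5 °C (green), grouped by class. All points are open, since none had an adjusted p below 0.05, and the points of the first 2 classes lie left of 0 at thermoneutrality.

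Genes that modify, process and bind collagen were called in both directions in the cold. Their counts stand against 31.6% of all genes called higher and 33.4% lower in control mice and 33.7% and 34.9% in mice labelled KO, and in lists of 5 to 19 genes most counts are near those shares, so none is read as a trait of its list. In the endoplasmic reticulum, where prolines and lysines of the chains are hydroxylated, 4 of 19 tested genes were higher and 7 lower in control mice, and 8 and 6 in mice labelled KO. The prolyl hydroxylase subunits P4ha1 (27.4 ± 5.5 to 99.0 ± 25 CPM, SD, in control mice) and P4ha2 and the lysyl hydroxylase Plod2 (7.98 ± 0.78 to 20.2 ± 2.5 CPM) rose in both genotypes, with log2 fold changes of 1.85, 1.05 and 1.34 in control mice and 1.58, 0.94 and 1.35 in mice labelled KO. Crtap, a partner of prolyl 3-hydroxylation, fell by 1.52 and 1.20, and the glycosyltransferase Colgalt2 fell by 1.84 and 2.43. For propeptide removal and cross-linking, 5 of 12 were higher and 2 lower in each genotype. The lysyl oxidases that cross-link fibrils were among the higher ones, with Loxl4 at 1.46 and 1.29 and Lox at 1.23 and 1.66, while the propeptide protease Tll1 fell by 1.63 and 1.93. Of the proteases that degrade collagen, 3 of 12 were higher and 5 lower in each genotype. The collagenase Mmp8 lay at 0.0821 ± 0.064 and 1.62 ± 0.72 CPM in control mice. It was tested through its cold mice alone, so nothing is read from it. None of the pathway or marker list counts given here was cleared of genes that passed the filter through 1 temperature alone. Mmp19 rose from 20.2 ± 4.3 to 51.1 ± 11 CPM in control mice, and Mmp15 and Mmp11 fell by 1.48 and 1.18 there. Among the inhibitors, 2 of 5 were higher in each genotype and 1 lower in control mice, with Timp1 rising by 2.28 and 2.78.

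Of the other basement membrane components, 6 of 15 were higher and 6 lower in each genotype, beside the 31.6% to 34.9% of all genes called in each direction. Lamb1, the laminin chain found in vascular and adipocyte basement membranes, rose from 149 ± 5.6 to 652 ± 54 CPM in control mice (2.13 ± 0.07, adjusted p = 2.3e-18 by edgeR's quasi-likelihood test) and by 2.23 ± 0.07 in mice labelled KO. Lamb3, a laminin chain best known from epithelia, rose by 1.71 and 2.01 in the same order of genotypes. Agrn, a heparan sulfate proteoglycan, fell by 1.502 and 1.69, and Lama4, the laminin chain of endothelium, by 0.95 and 0.78. Of the proteins that bind fibrils, 4 of 14 were higher and 5 lower in control mice and 7 and 4 in mice labelled KO, beside the same shares of all genes, with thrombospondin Thbs1 rising by 2.87 and 4.60, elastin Eln by 1.32 and 1.27, and the proteoglycan Podn falling by 1.37 and 1.51. Of the 9 collagen receptors, 5 were higher and 4 lower in control mice and 4 and 3 in mice labelled KO. The discoidin receptor Ddr1 fell by 2.01 and 1.92 and the inhibitory receptor Lair1 by 2.08 and 1.73, while Itga2, a subunit of a collagen-binding integrin, rose by 0.79 and 0.70. Of the genes of the TGF-beta pathway, a main driver of matrix synthesis, 4 of 15 were higher and 5 lower in control mice and 5 and 6 in mice labelled KO. The target Ccn2 (2.48 and 3.06) and the feedback inhibitor Smad7 (1.18 and 1.17) rose, whereas the receptor Tgfbr2 fell by 1.43 and 1.05 and the latency protein Ltbp2 by 1.30 and 1.57. Mouse 27 labelled KO in the cold had the highest sum of its group for the fibril-binding list, at 1889 CPM (others at most 1534). It was also the highest for the TGF-beta list, at 933 CPM (others at most 650). For the collagen-degrading proteases it was the highest at 277 CPM (others at most 205). The same held for propeptide removal and cross-linking (255.2 CPM, others at most 239.6) and basement membrane partners (2664.9 CPM, others at most 2552.5). For collagen receptors it stood at 773 CPM (others at most 715). The rises in mice labelled KO are given with this mouse, and its part in them was not tested. No gene of these lists was called between the genotypes or for the difference of the responses, where edgeR's unadjusted p was below 0.05 for 0 to 4 genes of each list of 5 to 19, and for 7.65%, 13.4% and 16.2% of all genes.

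Markers of cell types that make basement membrane were called in differing directions in the cold, where 31.6% of all genes were higher and 33.4% lower in control mice and 33.7% and 34.9% in mice labelled KO. Of 8 endothelial markers, 5 were higher in the cold (Pecam1, Cdh5, Kdr, Esam and Cldn5) and 3 lower (Tie1, Tek and Emcn) in both genotypes. Their summed level was 530 to 718 CPM and 617 to 805 CPM at thermoneutrality and 849 to 999 CPM and 737 to 1018 CPM in the cold. None of the 8 was at 0 in any group. Pericyte markers had 4 of 6 lower in control mice and 5 of 6 in mice labelled KO and none higher, with a summed 642 to 887 CPM and 685 to 831 CPM at thermoneutrality and 565 to 674 CPM and 506 to 606 CPM in the cold. Of 8 brown adipocyte markers, 3 were higher and 3 lower in control mice and 4 and 3 in mice labelled KO, and their sum, carried by Ucp1, went from 8207 to 10326 CPM over the thermoneutral mice to 26086 CPM or more in the cold. Among the other matrix-making cell types, 3 of 4 smooth muscle markers were higher and 1 lower in each genotype. Fibroblast or progenitor markers had 1 of 7 higher and 2 lower in control mice, and 2 higher and 0 lower in mice labelled KO. The part of each cell type in the collagen results was not tested.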

How the data were processed

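RNA was extracted from BAT of 26 mice, depleted of ribosomal RNA and sequenced as stranded total RNA. Per the labels and the submitters' processing notes, the authors used STAR 2.5.2b with the mm10 genome for alignment and made the deposited counts, whole numbers of reads per gene, with featureCounts 1.5.2 on GENCODE M13. They used edgeR 3.22.0 for their own tests. The strand setting of the counting was not given in the sources used here, so genes that overlap on opposite strands may share reads.

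The counts were used as deposited. Genes were named from GENCODE M21 (50462 of 50686 matched), which also gave exon lengths, so a length can differ from that of the annotation used for counting. Genes were kept at a count of at least 10, scaled to library size (CPM of 0.58), in at least 5 mice, which left 17286. edgeR 4.0.16 (R 4.3.3, limma 3.58.1) was run with TMM factors and the quasi-likelihood test on all 4 groups together, with contrasts for cold in each genotype, genotype at thermoneutrality and at 5 °C, and the difference between both cold contrasts. P-values were adjusted by Benjamini-Hochberg over all genes tested, and a gene was called at an adjusted p below 0.05. The fits were tested on simulated data. Total counts per library ran from 12705969 to 25732258 (median 17237377), so a count of 10 is 0.58 CPM at that median depth, and levels near it are imprecise. Of 73 pairs of libraries within groups, none agreed within counting noise.

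Alternatives were DESeq2 1.42.0, scaling by library size alone or by the upper quartile, no filter, a count of at least 10 in every mouse, fits on only the groups compared, other variance estimates, and each mouse left out in turn. Leaving out control mouse 7 and mouse 27 together, after seeing the data, was added. Every collagen gene was named, and values by mouse were set for those averaging 50 CPM or more and, in each comparison, for up to 4 with the largest rise and 4 with the largest fall among called genes with a mean of at least 1 CPM. Values by mouse of other collagens, Col15a1 and Col18a1 among them, were chosen after their values were seen. From each pathway list up to 3 called genes in each direction could be named, and some of these are not reported here. The members and lists were chosen with earlier results of these data known. Promoter sequences came from RefSeq on GRCm38.p6, where 35 of the 44 genes had an entry. Mice of a group are separate animals, individually housed.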

Additional observations from a re-analysis of the deposited data

Results flagged for a closer look

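In 19 of 104 groups of values tested, the highest or lowest mouse lay far from the others of its group (Dixon's criterion at 95%). The tests are not independent, since class sums hold the same genes and 1 mouse can be flagged in many. The 19 flags are therefore not set against a chance rate. Control mouse 7 at thermoneutrality held 13 of these. It was the highest of its group for Col1a1 (428 CPM, others at most 197), Col1a2 (714, others at most 315), Col3a1 (1892, others at most 1003), Col5a1 (127), Col5a2 (157), Col6a1 (222), Col6a2 (154) and Col6a3 (464 CPM, others at most 218). Its summed fibrillar (3475 CPM), basement membrane (1131 CPM) and beaded-filament levels (849.955 CPM) were the highest too. It was the lowest for Col28a1 (5.69 CPM, others at least 17.2) and for the summed other class (5.73 CPM).

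Mouse 27 labelled KO in the cold held 4, as the highest for Col12a1 (603 CPM, others at most 150.3), Col5a3 (87.2 CPM) and the summed FACIT class (626 CPM), and as the lowest for Col5a1 (32.1 CPM, others at least 54.0). Mouse 28 labelled KO in the cold was the highest for Col6a3 (262 CPM, others at most 235), and cold control mouse 21 was the highest for Col12a1 (121 CPM, others at most 85.2). The cause of these values was not tested.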

How the results depend on the processing

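No collagen gene called in the cold turned its direction in any alternative. Leaving out each mouse in turn gave 4 to 7 collagens higher and 7 to 9 lower in control mice and 7 to 8 higher and 8 to 12 lower in mice labelled KO, and 0 between genotypes or for the difference of responses. Calls were lost for Col14a1 in 8 alternatives, Col4a6 in 7, Col11a1 in control mice in 5, Col5a2 in 2 (library size alone and upper-quartile factors, 0.07 and 0.24) and Col5a3 in 1, and every other collagen call held wherever the gene was tested. DESeq2, run on the genes kept by the same filter, gave the same counts as edgeR, 5 and 8 in control mice and 7 and 10 in mice labelled KO. All these counts and calls include Col11a1, Col4a6 and Col19a1, whose calls support nothing because of the filter. Without the genes that passed it through 1 temperature alone, edgeR's counts were 4 and 8 in control mice and 6 and 8 in mice labelled KO. Without control mouse 7 the counts were 7 and 7, and 8 and 10. Over all genes, DESeq2 called 48 between genotypes at thermoneutrality, 197 in the cold and 488 for the difference of responses, against 14, 24 and 200 by edgeR, and with no filter edgeR called 9, 15 and 27. With library size alone, 34 and 5 genes were called between genotypes at thermoneutrality and in the cold. A count of at least 10 in every mouse gave 45 in the cold, and a fit on only the groups compared gave 9. Leaving out 1 mouse gave 7 (control mouse 2) to 93 (control mouse 7) at thermoneutrality, 7 (control mouse 19) to 100 (mouse 22 labelled KO) in the cold and 49 (mouse 8 labelled KO) to 371 (control mouse 7) for the difference of responses, so the shares of all genes called there are unsteady. No paired analysis was possible because each mouse number occurs in 1 group only. Genes below about 1 CPM, Col4a6, Col6a5, Col9a3, Col11a1, Col17a1 and Col19a1, rest on few counts per mouse.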
